A study of Ovis aries with 23 samples.

Results

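Thyrotropin (thyroid-stimulating hormone, TSH) is built from a beta subunit encoded by TSHB (ENSOARG00000020127) and an alpha subunit encoded by CGA (ENSOARG00000013153). These genes are 2 of the 25197 genes counted in every sample of an RNA-seq study of the sheep pars tuberalis (PT), the part of the pituitary that wraps the pituitary stalk. They were chosen by name, as the genes of the subunits of one hormone, and their identifiers were taken from the gene symbols in the study's own lists. All animals were castrate (neutered) male Scottish blackface sheep. A total of 5 samples came from short photoperiods (SPs), a cycle of 8 hr light and 16 hr dark. The other groups had spent 1, 7, or 28 days on long photoperiods (LPs), a cycle of 16 hr light and 8 hr dark, with 6 samples each, so there were 23 samples in all. The labels do not say that the samples are separate animals, and p-values measure the spread between these samples only. No long day group kept beyond day 28 is included here, and castration removes the gonadal steroid feedback that an intact animal would have.

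The beta subunit gives TSH its identity, whereas the alpha subunit is shared with luteinizing hormone (LH) and follicle-stimulating hormone (FSH). In the PT of seasonal mammals, melatonin acts on thyrotroph cells and sets how much TSHB is transcribed, with more TSH made under long days. PT-derived TSH acts on the neighboring hypothalamus, where it changes the local metabolism of thyroid hormone. The transcription factor TEF and its coactivator EYA3 are known activators of TSHB in the PT. Chromogranin A (CHGA), a protein of secretory granules, was identified by the study as a marker of SPs and serves here as a second reference for TSHB. It was picked on RNA-seq data from different conditions that include these samples, so a ratio to CHGA is not independent evidence of a photoperiod change. The study also saw more CHGA protein on SPs by immunostaining.

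TSHB was a well-covered transcript at this depth, with 97 to 6840 counts per sample. Total counts ranged from 307952 in LP day 1 sample 4 to 4413929, with a median of 3332320, and the lowest total of any other sample was 1852503. LP day 1 samples 3 and 4 were the most alike pair of one group, with a chi-square of 1.154 per gene, where 1 is counting noise. The next pairs, LP day 1 samples 4 and 6 at 1.813 and samples 1 and 4 at 3.588, also held sample 4. Its low total makes a chi-square smaller, so this ranking partly reflects depth. TSHB itself differed between samples 3 and 4 beyond counting error, with 95% Wilson intervals of 397.9 to 444.3 and 258.2 to 384.2 CPM (counts per 1000000 counts) before further scaling. They were kept as 2 samples, which a difference in a single gene cannot establish, and their sum is given as an alternative. Reads carry no molecular identifiers, so these intervals cover counting error only. The clock gene CRY1 split the samples into 13 with 137.9 to 406.3 CPM and 10 with 16.95 to 34.48 CPM. Both kinds occurred in every group, and the time of day at which each sample was collected is not given in the sources used here. This split was chosen after seeing the data.

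Pars distalis hormone genes were detected in all samples, which bears on CGA because gonadotrophs of the pars distalis also make it. The pars distalis has thyrotrophs of its own, in which the study saw TSH beta protein that did not change with photoperiod. Counts of TSHB and CGA may thus include RNA from those cells. The 6 of 7 listed pars distalis genes whose identifiers were paired summed to between 35010 and 140800 CPM on SPs. Their sum lay between 46560 and 270900 CPM after 1 day of LPs, between 46480 and 176600 CPM after 7 days, and between 74570 and 272500 CPM after 28 days. Prolactin (PRL) had the highest mean of these genes in each group, 72130 CPM on SPs and 153900 CPM after 28 days. Growth hormone (GH1) and POMC averaged 19490 and 4065 CPM on SPs and 18920 and 3841 CPM after 28 days. LHB and FSHB averaged 4681 and 583.3 CPM on SPs and 3568 and 345.5 CPM after 28 days, and GNRHR 61.3 and 61.54 CPM. The higher sums at LP day 28 thus mostly reflect PRL. Of these genes, PRL and GH1 entered alternative fits as covariates, and PRL, GH1, LHB, and FSHB were set against CGA or TSHB across samples. The part of pars distalis tissue in the results was not tested beyond that. In bulk tissue, fewer thyrotrophs and less RNA per thyrotroph cannot be told apart.

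TSHB stood low and scattered on SPs and was high in every sample after 28 days of LPs. Levels are CPM normalized with the TMM method over all 23 samples. On SPs, TSHB was 207.4, 663.9, 47.03, 625.5, and 265.2 CPM in samples 1 to 5. SP samples 2 and 4 lay above the others, SP sample 3 lay far below them, and the highest was 14.12 times the lowest. At LP day 1, TSHB ranged from 173.9 to 393.9 CPM, with a median of 252.7 CPM, all within the range of the SP samples. At LP day 7, it ranged from 289.4 to 1151 CPM, with a median of 559.0 CPM, and 3 of the 6 samples were above the highest SP sample. At LP day 28, it ranged from 920.5 to 1580 CPM, with a median of 1204 CPM. All 6 samples were above every SP and LP day 1 sample, a separation that was not counted over all genes. The highest was only 1.716 times the lowest. The mean was 361.8 ± 270.7 CPM on SPs (SD, n = 5). With 6 samples each, it was 257.0 ± 82.45 CPM after 1 day of LPs, 603.8 ± 310.4 CPM after 7 days, and 1217 ± 227.7 CPM after 28 days (SD). On the log2 scale, the SD within a group was 1.55 on SPs and 0.27 at LP day 28. The order of the means was thus LP day 1, SPs, LP day 7, and LP day 28, and ranges overlapped between all neighbors in this order.

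**Figure D1:**
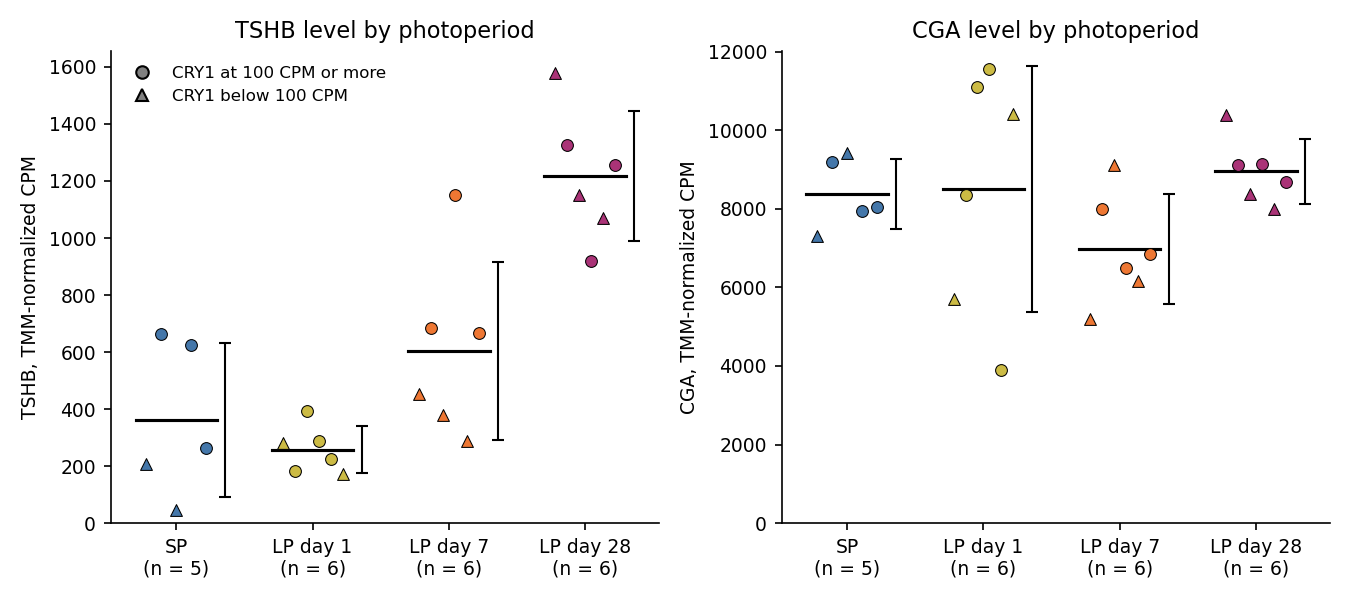
TSHB and CGA levels in TMM-normalized CPM (y axis) for each sample by photoperiod group (x axis), with the group mean as a horizontal line and 1 SD either side of it as a bar. Circles are samples with CRY1 at 100 CPM or more and triangles those below it. TSHB at LP day 28 lies between 920.5 and 1580 CPM, above every SP and LP day 1 sample, whereas the CGA groups overlap.

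CGA showed no such separation. On SPs, CGA was 7301, 9201, 9409, 7956, and 8052 CPM in samples 1 to 5. These samples lay close together, with a log2 SD of 0.15, although TSHB ranged widely among the same 5 samples. At LP day 1, CGA ranged from 3886 to 11560 CPM, with a median of 9385 CPM, and was the most scattered of the groups. LP day 1 samples 1 and 5 were low, at 5717 and 3886 CPM, and samples 3, 4, and 6 were high, at 11110, 11560, and 10420 CPM. At LP day 7, it ranged from 5200 to 9125 CPM, with a median of 6668 CPM. At LP day 28, it ranged from 7993 to 10400 CPM, with a median of 8902 CPM. The mean was 8384 ± 892.2 CPM on SPs (SD, n = 5) and, over 6 samples each, 8507 ± 3128 CPM after 1 day of LPs, 6970 ± 1397 CPM after 7 days, and 8954 ± 834.1 CPM after 28 days (SD). CGA took between 0.3744% and 1.265% of all counts. Counts were not scaled by gene length, so the levels of TSHB and CGA are not compared with each other, only their changes.

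TSHB rose from LP day 1 to LP day 28, the one comparison in which it passed the test. Each comparison was tested across all genes with the quasi-likelihood test of edgeR, and a gene was called where its false discovery rate (FDR, by the Benjamini-Hochberg method) was under 0.05. From LP day 1 to LP day 28, the log2 fold change of TSHB was 2.25 (SE 0.18, FDR 5.51e-07), and 0.216% of the 14820 genes tested were called. With CRY1 as a covariate, it was 2.29 (FDR 2.65e-06). The samples of these groups did not overlap. Between SPs and LP day 28, the log2 fold change was 1.75 (SE 0.41), with a 95% interval of 0.88 to 2.62. This comparison missed the threshold (edgeR FDR 0.0615), and 0.67% of the 14929 genes tested were called. These groups did not overlap either, but for neither comparison was the share of all genes without overlap counted. The call turned on the SP samples: it was gained without SP sample 3 (log2 fold change 1.47, FDR 0.0174), which held the lowest TSHB level, and without SP sample 4 (2.04, FDR 0.0473). It was also gained in 6 of 14 other settings, among them DESeq2 (FDR 0.0495) and CRY1 as a covariate (log2 fold change 2.12, FDR 0.0296). With PRL as a covariate, the log2 fold change was 1.62 (FDR 0.154), and with GH1, 1.75 (FDR 0.0698).

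The intermediate steps did not pass. Between SPs and LP day 7, the log2 fold change of TSHB was 0.74 (SE 0.48, edgeR FDR 0.51), with a 95% interval of -0.29 to 1.77, and 0.266% of the 15030 genes tested were called. With CRY1 as a covariate, it was 0.97 (FDR 0.211). For LP day 1 against SPs, it was -0.49 (SE 0.43, edgeR FDR 0.9999), or -0.36 with CRY1 as a covariate. No gene among 14920 was called by edgeR in that comparison (0%), in which 497 genes had an unadjusted p under 0.05, DESeq2 called 2, and limma voom called 0. From LP day 1 to LP day 7, the log2 fold change was 1.23 (SE 0.28, edgeR FDR 0.374), with 0.0201% of genes called, and 1.25 with CRY1 as a covariate (FDR 0.0438). From LP day 7 to LP day 28, it was 1.02 (SE 0.24, edgeR FDR 0.244), with 0.00672% of genes called. It passed with CRY1 as a covariate (1.20, FDR 0.0386) and without LP day 7 sample 4 (1.31, FDR 0.0257), which held the highest level of its group. The comparisons with SPs share the same 5 SP samples, and those with LP day 1, 7, or 28 share samples in the same way.

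CGA passed the test in none of the 6 comparisons. For LP day 28 against SPs, its log2 fold change was 0.09 (SE 0.089, edgeR FDR 0.694), with a 95% interval of -0.10 to 0.28. From LP day 1 to LP day 28, where TSHB was called, CGA stood at 0.07 (SE 0.19, edgeR FDR 0.966), with an interval of -0.33 to 0.48. The interval of TSHB in that comparison, 1.87 to 2.63, lay wholly above it. After 7 days of LPs, CGA had a log2 fold change of -0.27 against SPs (SE 0.12, edgeR FDR 0.322), with a 95% interval of -0.53 to -0.01. From LP day 7 to LP day 28, the log2 fold change was 0.37 (SE 0.11, edgeR FDR 0.425), with an interval of 0.14 to 0.60. The intervals of these last comparisons exclude 0, but intervals are not adjusted for the number of genes tested. Between SPs and LP day 1, it was 0.02 (SE 0.22, edgeR FDR 0.9999), and from LP day 1 to LP day 7, -0.29 (SE 0.21, edgeR FDR 0.899).

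**Figure D2:**
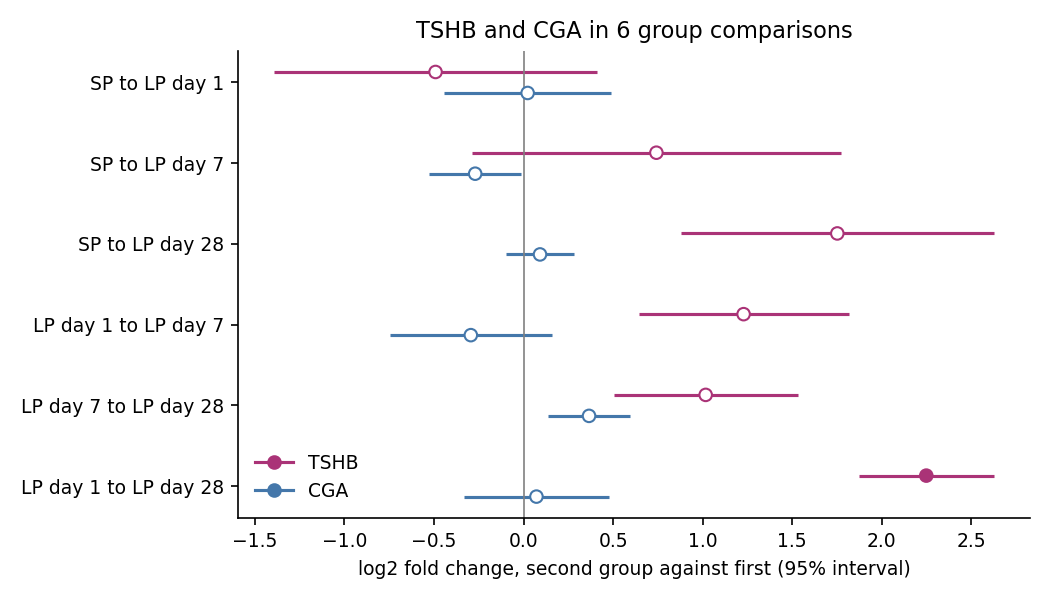
Log2 fold changes of TSHB and CGA (x axis, second group against first) in the 6 group comparisons (y axis). Points are edgeR estimates, lines are 95% intervals, and a filled point marks an FDR under 0.05. Only TSHB from LP day 1 to LP day 28, at 2.25, is filled, and the CGA intervals lie between -0.75 and 0.60.

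Set against CGA in the same library, TSHB rose from SPs to LP day 28 and from LP day 1 onward. The ratio does not depend on library size, and a change shared by both subunit genes cancels in it. A change in CGA alone moves it too. On SPs, TSHB reached 28.4, 72.16, 4.998, 78.62, and 32.94 counts per 1000 CGA counts in samples 1 to 5, a spread like that of TSHB alone. At LP day 1, the ratio ranged from 16.7 to 57.73, with a median of 30.18. It was highest in samples 5 and 1, which had the lowest CGA levels of that group. At LP day 7, it ranged from 41.67 to 177.6, with a median of 86.19. At LP day 28, it ranged from 100.6 to 151.9, with a median of 141.1, and all 6 samples were above every SP and LP day 1 sample. How often ratios of other genes separate likewise was not counted. The mean ratio was 43.42 ± 31.13 on SPs (SD, n = 5) and, over 6 samples each, 34.27 ± 16.3 after 1 day of LPs, 89.3 ± 48.86 after 7 days, and 135.7 ± 18.32 after 28 days (SD).

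Ratios were tested on the log2 scale with exact two-sided permutation tests, adjusted over 12 tests, and the smallest p that these group sizes allow is 0.00217. The TSHB to CGA ratio was 4.41-fold higher on LP day 28 than on SPs (log2 difference 2.14, exact permutation p = 0.00217, adjusted 0.00433). Without SP sample 3, the log2 difference fell to 1.49 and still passed (exact permutation test, adjusted p = 0.00952). From LP day 1 to LP day 28, it was 4.32-fold higher (log2 difference 2.11, exact permutation p = 0.00217, adjusted 0.00433), and from LP day 1 to LP day 7, 2.55-fold higher (log2 difference 1.35, exact permutation p = 0.0152, adjusted 0.0227). The ratio was 2.60-fold higher on LP day 7 than on SPs but did not pass (exact permutation p = 0.0649, adjusted 0.0779), and without SP sample 3 the log2 difference was 0.73. From LP day 7 to LP day 28, the 1.69-fold difference did not pass after adjustment (exact permutation p = 0.0455, adjusted 0.0606), but it did without LP day 7 sample 4 (log2 difference 0.99, adjusted exact permutation p = 0.00371). SPs and LP day 1 differed by 0.03 on the log2 scale (exact permutation p = 0.974).

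TSHB per CHGA count (ENSOARG00000013347) differed more between groups, and CHGA itself fell on LPs. CHGA fell from SPs to LP day 7 (log2 fold change -1.14, edgeR FDR 0.00215) and from SPs to LP day 28 (-1.69, edgeR FDR 1.28e-05). On SPs, TSHB reached 48.32, 182.8, 17.89, 225.3, and 73.85 counts per 1000 CHGA counts in samples 1 to 5. It ranged from 50.65 to 134.3 after 1 day of LPs (median 96.63), from 178.0 to 886.3 after 7 days (median 332.5), and from 953.8 to 1672 after 28 days (median 1108). Every LP day 28 sample was thus above every sample of the other groups, and every LP day 7 sample above every LP day 1 sample. How often ratios of other genes separate likewise was not counted. CHGA levels alone also did not overlap between SPs and LP day 7, or between LP day 28 and either SPs or LP day 1. This ratio was 15.3-fold higher on LP day 28 than on SPs (log2 difference 3.93, exact permutation p = 0.00217, adjusted 0.00433), and from LP day 1 to LP day 28, 12.7-fold higher (3.67, with the same p-values). From SPs to LP day 7, it was 4.71-fold higher (log2 difference 2.23, exact permutation p = 0.00866, adjusted 0.0148). Both differences from SPs leaned on SP sample 3. Without it, the log2 difference was 3.41 for LP day 28 and 1.71 for LP day 7, and both still passed. From LP day 1 to LP day 7 it was 3.91-fold and from LP day 7 to LP day 28 3.24-fold higher, both at the smallest p of the exact permutation test (adjusted 0.00433). SPs and LP day 1 did not pass (log2 difference 0.27, exact permutation p = 0.706).

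**Figure D3:**
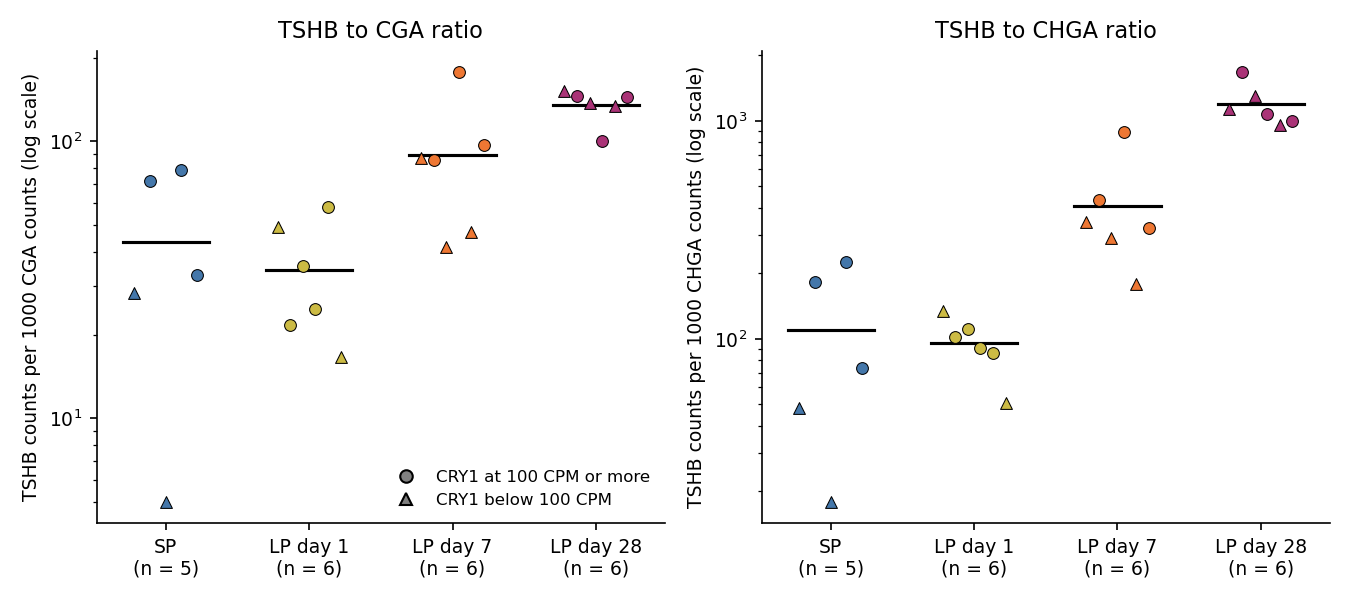
TSHB counts per 1000 CGA counts and per 1000 CHGA counts (y axes, log scales) for each sample by photoperiod group (x axis), with the group mean as a line. Circles are samples with CRY1 at 100 CPM or more and triangles those below it. SP sample 3 is the lowest point in both panels, at 4.998 and 17.89, and all LP day 28 samples lie above all SP samples.

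TSHB separated by the CRY1 split in the SP and LP day 7 groups and overlapped in the other groups. On SPs, the 3 samples with high CRY1 had 265.2 to 663.9 CPM of TSHB, and those with low CRY1 had 47.03 and 207.4 CPM. At LP day 7, the 3 samples with high CRY1 had 666.1 to 1151 CPM (mean 833.7 ± 274.9 CPM, SD), and the 3 with low CRY1 had 289.4 to 451.8 CPM (373.8 ± 81.39 CPM, SD). The samples did not overlap between CRY1 levels in either group. With so few samples such a separation can arise by chance, and the share of all genes that separated likewise was not counted. After 1 day of LPs they did, with 181.2 to 393.9 CPM in the 4 samples with high CRY1 and 173.9 and 281.0 CPM in those with low CRY1. At LP day 28 they also did, with means of 1168 ± 217.0 CPM (SD, n = 3) at high and 1267 ± 274.1 CPM (SD, n = 3) at low CRY1. Within each CRY1 level, all LP day 28 samples were above all SP samples, which had to be so because these groups did not overlap at all. At LP days 7 and 28, CRY1 was low in the odd and high in the even sample numbers, so the number and the CRY1 level cannot be told apart there. The ratios were not tested within CRY1 levels, and why TSHB separated by CRY1 in those groups was not tested.

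EYA3, the coactivator of TSHB, was high after 7 and 28 days of LPs in samples with low CRY1. At LP day 7, EYA3 was 331.7 to 968.9 CPM in the samples with low CRY1 and 30.86 to 41.16 CPM in those with high CRY1. At LP day 28, it was 123.1 to 471.1 CPM in the former and 37.65 to 58.54 CPM in the latter. The samples with the most EYA3 RNA at LP day 7 were therefore those with less TSHB. On SPs, EYA3 was 31.86 ± 6.019 CPM (SD, n = 5), and its levels overlapped between samples with high and low CRY1. At LP day 1 they did not, with 60.37 and 75.56 CPM at low and 20.39 to 53.73 CPM at high CRY1. The share of all genes that separated by CRY1 as EYA3 did was not counted. From SPs to LP day 28, EYA3 rose (log2 fold change 2.57, SE 0.57, edgeR FDR 0.0481), a call that was lost in 8 of 11 fits with 1 sample left out and in 9 of 14 other settings. From SPs to LP day 7, its log2 fold change was 3.22 (edgeR FDR 0.0777). That comparison passed in DESeq2 (FDR 0.0117), with the parity of the sample number as a covariate (2.52, FDR 0.0396), and without LP day 7 sample 6 (3.43, FDR 0.0449), whereas the estimate was 1.78 in limma voom (FDR 0.443) and 1.99 with CRY1 as a covariate (FDR 0.176). With group means taken off, the Spearman correlation of TSHB and EYA3 over 23 samples was -0.45 (permutation p = 0.0409, adjusted 0.204) and Pearson's r was -0.27 (permutation p = 0.0909, adjusted 0.303), or -0.26 without the 2 samples farthest from the median. Within CRY1 levels r had opposite signs, -0.34 at high (n = 13) and 0.28 at low (n = 10).

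CGA followed LHB, the beta subunit gene of LH, from sample to sample, and TSHB did not follow CGA. Correlations were taken over log2 CPM of all 23 samples with group means removed, and p-values were adjusted over the 10 relations tested. CGA and LHB had r = 0.82 (permutation p = 6.3e-04, adjusted 0.0063) and rho = 0.60 (permutation p = 0.0115, adjusted 0.115), and r = 0.64 without the 2 farthest samples. Within CRY1 levels, r was 0.92 at high (n = 13) and 0.77 at low (n = 10). LP day 1 sample 5 was lowest in both genes, with 1550 CPM of LHB, and samples 3 and 4 of that group were highest in both, with 8829 and 7399 CPM of LHB. CGA and FSHB, the beta subunit gene of FSH, had r = 0.70 (permutation p = 0.00785, adjusted 0.0393) but rho = 0.37 (permutation p = 0.123, adjusted 0.409). That r was 0.53 without the 2 farthest samples and 0.86 at high and 0.44 at low CRY1. Without LP day 1 sample 4 it was 0.67 and no longer passed (adjusted permutation p = 0.0852). TSHB and CGA had r = 0.02 (permutation p = 0.885, adjusted 0.983) and rho = 0.11 (permutation p = 0.644, adjusted 0.726), with r = -0.03 without the 2 farthest samples and 0.27 at high and -0.39 at low CRY1. TSHB and PRL had an r of 0.00 to 2 decimals (permutation p = 0.9995). The other relations, of TSHB with CHGA and GH1 and of CGA with CHGA, PRL, and GH1, had r between -0.30 and 0.27, and none passed.

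**Figure D4:**
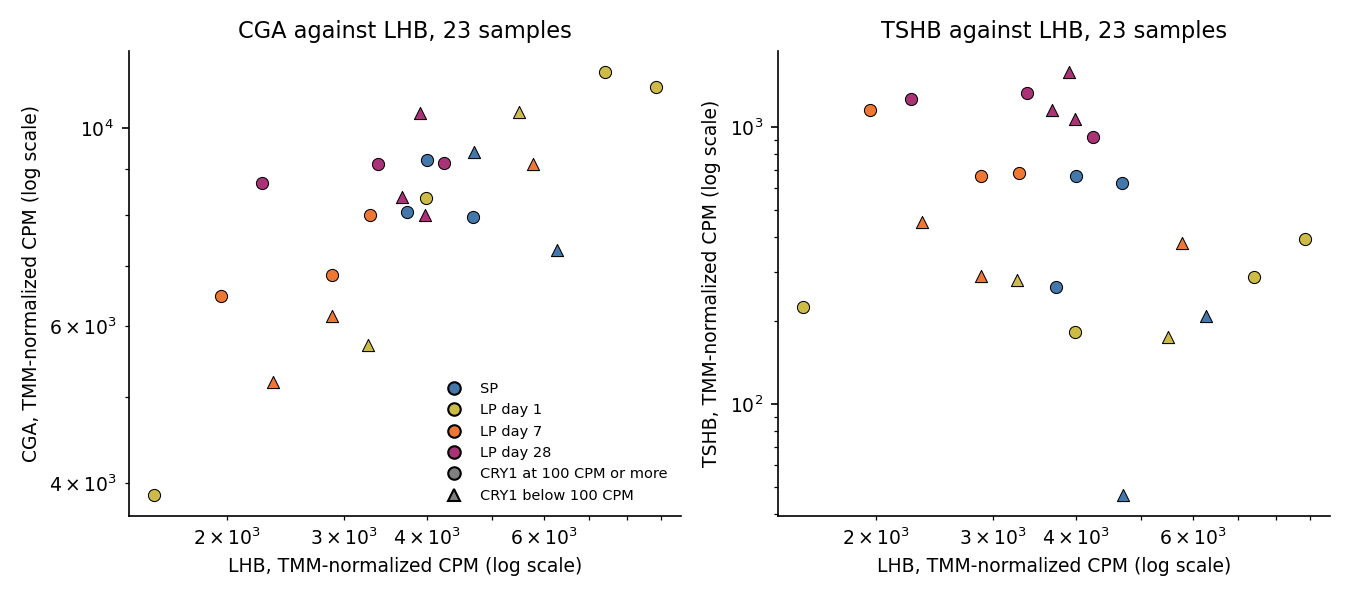
CGA and TSHB (y axes) against LHB (x axes) in 23 samples, all in TMM-normalized CPM on log scales. Colors mark the photoperiod groups, circles samples with CRY1 at 100 CPM or more, and triangles those below it. CGA and LHB rise together, with r = 0.82 once group means are taken off, and LP day 28 samples stand high in TSHB over the middle of the LHB range.

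LHB and FSHB, which share the CGA subunit, did not pass in any comparison with SPs. LHB was 4681 ± 983.7 CPM on SPs (SD, n = 5) and 3568 ± 708.1 CPM after 28 days of LPs (SD, n = 6), a log2 fold change of -0.39 (edgeR FDR 0.244). FSHB was 583.3 ± 172.8 CPM on SPs (SD, n = 5) and 345.5 ± 154.5 CPM after 28 days of LPs (SD, n = 6), a log2 fold change of -0.76 (edgeR FDR 0.158). The estimates of both gonadotropin beta subunits were thus below 0 where that of TSHB was above it. Of the 6 genes listed as the glycoprotein hormone family, 4 could be paired with an identifier and tested, with a median log2 fold change of -0.15 from SPs to LP day 28 against -0.01 over all genes tested. PRL, which marks lactotrophs of the pars distalis, had a log2 fold change of 1.09 from SPs to LP day 28 (edgeR FDR 0.192).

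Other genes of the pathway were read from fixed lists, and few could be paired with an identifier because symbols came from the study's lists of changed genes. Among genes with such a symbol, 2.21% were called from SPs to LP day 7 and 6.76% from SPs to LP day 28. Of all genes tested, 0.193% were called higher and 0.0732% lower at LP day 7 than on SPs, and 0.422% higher and 0.248% lower at LP day 28. Of 20 transcription factors and coactivators of thyrotrophs, 7 were tested, and EYA3 was the one called, at LP day 28. Of 18 receptors and enzymes around TSH, 9 were tested. The thyroid hormone and organic anion transporter gene SLCO1C1 rose to LP day 7 (log2 fold change 2.21, edgeR FDR 1.47e-05) and to LP day 28 (1.80, edgeR FDR 2.65e-06). The neuropeptide S receptor gene NPSR1 fell to LP day 7 (-1.78, edgeR FDR 0.0477), a call lost in 8 of 11 fits with 1 sample left out and in 8 of 14 other settings, and to LP day 28 (-3.11, edgeR FDR 0.00133). NPSR1 was also chosen by the study on these samples as a marker of SPs. The thyroid hormone receptor gene THRA fell to LP day 28 (-0.44, edgeR FDR 0.0169), a call lost in 2 of those 11 fits and in 4 of 14 other settings. The medians of the 9 genes were 0.73 at LP day 7 and 0.20 at LP day 28.

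Of 10 genes for granule proteins and prohormone processing, 6 were tested. CHGA fell at LP days 7 and 28, as above, and VGF, a granule protein precursor, rose to LP day 28 (log2 fold change 1.33, edgeR FDR 0.0293), a call lost in 4 of 11 fits with 1 sample left out and in 5 of 14 other settings. The other settings include a stricter FDR threshold of 0.01. The median of the 6 was 0.01 at LP day 7 and 0.32 at LP day 28. Of 17 genes for subunit folding and N-glycan processing, only the mannosidase MAN1A1 could be tested, and it stood at 0.28 at LP day 7 (edgeR FDR 0.602). No member of these lists was called from SPs to LP day 1, as no gene was.

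Among the 1120 genes with a symbol, which came from the study's lists of changed genes, the level most like that of TSHB over the 23 samples was that of VMO1. It stood 2nd among all 15653 genes compared, most of which have no symbol here. Pearson's r with TSHB was 0.75 for VMO1, 0.73 for CIB2, 0.71 for ABCG2 and F5, and 0.70 for BPIFC, and was lowest for BAIAP3 (-0.70), SSC5D (-0.69), and RGS11 (-0.69). VMO1 averaged 12.3 ± 2.957 CPM on SPs (SD, n = 5) and 248.4 ± 70.84 CPM after 28 days of LPs (SD, n = 6), and ABCG2, a membrane transporter gene, 52.98 ± 9.155 and 210.2 ± 88.72 CPM. Once group means were taken off, r was between -0.02 and 0.34 for the 5 highest genes. For CGA, the highest were LHB (0.76), S100A2 (0.74), the potassium channel gene KCNJ5 (0.71), the granule protein gene CHGB (0.63), and RPN2 (0.61), a subunit of the oligosaccharyltransferase that starts N-glycosylation. The lowest were SNORA48 (-0.62), COL25A1 (-0.61), and HRH3 (-0.60). With group means taken off, the 5 highest genes kept r of 0.63 to 0.82, unlike those of TSHB. These values describe likeness across 23 samples whose depth differs, and carry no test.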

How the data were processed

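RNA-seq of PT tissue gave 23 samples, grouped by their labels. The authors deposited raw read counts per Ensembl sheep gene, and the submitters' notes name Bowtie, HTSeq, and build Oar_v3.1 without versions. File headers have the form featureCounts writes, so which program counted was not settled, and how strand was treated is not given in the sources used here. No row lacks a gene identifier. Symbols of 1259 genes came from the study's lists of changed genes, and 29 symbols had more than 1 identifier. No sequences or positions of this build were used here.

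Counts were tested in R 4.3.3 with edgeR 4.0.16 (quasi-likelihood, TMM), on the samples of the 2 groups, for genes over 1 CPM in a number of samples no less than the smaller group's size. Standard errors are the log2 fold change over the square root of F. Ratios were tested with exact permutations, and relations with 100000 permutations within groups. The test was checked on simulated data. Alternatives were DESeq2 1.42.0, limma 3.58.1, other scalings, filters and covariates, and each sample left out in turn. Named genes are TSHB, CGA, CHGA, EYA3, called members of fixed lists, and the 5 most and 3 least like genes. LHB, FSHB, PRL, POMC, GNRHR, and MAN1A1 were named after their values were seen. Members and lists were chosen with earlier results of these data known. The authors' own fold changes and p-values were not used.

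Sample numbers recur across groups. Over 33 pairs of the same number, the correlation of deviations from group means lay between -0.17 and 0.26, with a mean of 0.015, and 5 pairs were over 0.1. The numbers were therefore not taken to pair samples.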

Additional observations from a re-analysis of the deposited data

Results flagged for a closer look

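A sample that stood apart from the rest of its group was sought in 16 sets of values, and 2 were found, where chance alone marks about 1 in 20. At LP day 28, sample 4 had 100.6 TSHB counts per 1000 CGA counts, below the other samples of its group. At LP day 7, sample 4 had 886.3 TSHB counts per 1000 CHGA counts, above the others. No explanation was tested for either.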

How the results depend on the processing

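TSHB passed from LP day 1 to LP day 28 in all 26 settings tried. From SPs to LP day 28, its log2 fold change also passed in DESeq2 (1.75), without a filter (1.76), with all groups in 1 fit (1.75), in limma voom (2.20), and with the parity of the sample number (1.93) or CRY1 (2.12) as a covariate, and it lay between 1.47 and 2.09 with 1 sample left out. With CRY1 as a covariate, chosen after seeing the data like PRL, TSHB also passed from LP day 1 to LP day 7 (1.25) and from LP day 7 to LP day 28 (1.20). The latter lay between 0.87 and 1.31 with 1 sample left out. The causes were not tested.

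CGA changed sign where its estimate was near 0. From SPs to LP day 1, it was -0.15 with the replicate block, -0.038 with parity, -0.057 with PRL as a covariate, -0.069 with SP samples 2, 3, and 5 only, and -0.085 with LP day 1 samples 3 and 4 summed, and between -0.088 and 0.17 with 1 sample left out. From LP day 1 to LP day 28, it was -0.039 by library size and between -0.078 and 0.18 with 1 sample left out. PRL from SPs to LP day 7 lay between -0.47 and 0.12 with 1 sample left out, and PRL from SPs to LP day 28 was -0.004 with itself as the covariate.

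The replicate block pairs samples by number. As an exact sign-flip test it left no ratio difference past the threshold, which 5 or 6 pairs could not pass after adjustment. For TSHB to CGA, the log2 differences were 2.12 from SPs to LP day 28, 1.35 from LP day 1 to LP day 7, and 2.11 from LP day 1 to LP day 28. For TSHB to CHGA, they were 2.27 and 3.98 from SPs to LP days 7 and 28, 1.97 from LP day 1 to LP day 7, 1.70 from LP day 7 to LP day 28, and 3.67 from LP day 1 to LP day 28. Under the block, edgeR gave TSHB 2.14 from SPs to LP day 28 (FDR 0.117) and called 178 genes at LP day 7 against SPs, in place of 40, and 41 at LP day 28, in place of 100.

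Compared by medians, the TSHB to CGA ratio passed from SPs to LP day 7 (1.39) and from LP day 7 to LP day 28 (0.71), and was -0.15 from SPs to LP day 1. With 1 sample left out, that last difference lay between -0.63 and 0.37, the TSHB to CHGA one between -0.26 and 0.66, and the TSHB to CGA difference from LP day 7 to LP day 28 between 0.57 and 0.99. Relations near 0 changed sign for TSHB with PRL by library size (r = -0.10) and TSHB with CGA without LP day 1 sample 4 (-0.0012), and CGA with FSHB was 0.67 without that sample.

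Numbers of called genes depended on the method. They lay between 6 and 357 from SPs to LP day 7, between 27 and 346 from SPs to LP day 28, and between 17 and 63 from LP day 1 to LP day 28, with the most in DESeq2 each time. They lay between 0 and 4 from SPs to LP day 1, between 1 and 14 from LP day 1 to LP day 7, and between 0 and 36 from LP day 7 to LP day 28. Of the 3 genes in the ratios, TSHB had the lowest count in any sample, 97, against 3896 for CGA and 1064 for CHGA.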
